A study of Mus musculus with 38 samples.

Results

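The endothelial cell genes described here are 32 of the 29564 genes quantified in mouse left ventricle, a set named by the known roles of its members in the cells that line blood vessels. They comprise junction and surface proteins (Pecam1, Cdh5, Cldn5, Esam, Emcn, Cd34, Eng and Robo4), receptors of the vascular endothelial growth factor (VEGF) family (Kdr, Flt1, Flt4 and Nrp1), the angiopoietin receptor Tek with its partner Tie1, the apelin ligand Apln with its receptor Aplnr, genes of Notch signalling and arteriovenous identity (Dll4, Notch1, Hey1, Efnb2 and Nr2f2), transcription factors (Erg, Fli1, Sox17, Sox18, Klf2 and Klf4), and Egfl7, Vwf, Plvap, Aqp1 and Rgcc. The rule that names them uses roles and no measured value, but the members were chosen with earlier results of these data known. Bulk RNA was sequenced from the left ventricle of 38 wild-type C57BL6 mice, with 1 library per mouse. The study asked how a small-molecule inhibitor of histone deacetylase 6, TYA-018, and the SGLT2 inhibitor empagliflozin act in a model of heart failure with preserved ejection fraction (HFpEF).

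The 8 non_failing mice received vehicle and did not have the model. The other 30 mice carried the model, which combines a high-fat diet with L-NAME, an inhibitor of nitric oxide synthases, and were dosed orally with vehicle (HFpEF+Veh, n = 8), TYA-018 (HFpEF+TYA-018, n = 11) or empagliflozin (HFpEF+SGLT2i, n = 11). The labels give no age or dose for single mice. They give the sex as female, whereas the study's methods describe male mice.

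Endothelial cells form the inner layer of every vessel, hold together through adherens and tight junctions, and in the heart lie mostly in capillaries that run beside each cardiomyocyte. VEGF and angiopoietin receptors keep these cells alive and set their permeability, Notch ligands and their targets separate arterial from other endothelium, and flow along the vessel wall maintains Klf2 and Klf4. Endothelial cells are also the main source of nitric oxide, the product that L-NAME blocks. In bulk tissue, fewer endothelial cells and less RNA per endothelial cell cannot be told apart.

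Libraries held 21.5 to 59.3 M counts (M, 1000000; median 29.5 M), of which 28.5 to 39.5% came from mitochondrially encoded genes. The tissue carried its defining markers: 10 of 10 cardiomyocyte markers had a median above 1 TPM, a transcript's length-adjusted share scaled to 1000000 per library, in every group. The vehicle library V2523 held 1391 TPM summed over 10 hepatocyte markers, the other vehicle libraries at most 33.5 TPM and the non_failing libraries 23.7 to 349 TPM. The HFpEF+TYA-018 libraries held 1.77 to 3.93 TPM and the HFpEF+SGLT2i libraries 2.14 to 9.15 TPM, so every library of both treated groups lay below every non_failing library. In V2523, 18 of the 32 members lay within the range of the other 7 vehicle libraries, 12 lay below it and 2 above it. Leaving V2523 out moved the vehicle mean of a member by at most 7.05%. A second library stood apart for the members themselves: V2571 of the HFpEF+SGLT2i group was the highest of its group for 25 of 32 members. Its members summed to 2168 TPM, against at most 1663 TPM in the other 37 libraries. It also had the lowest total count of its group (22.1 M). Its immediate early genes summed to 1069 TPM, against at most 689 TPM in the other 10 libraries of its group. Its mitochondrial share was 39.0%, and V2572 of the same group had 39.5%. Depth was uneven within this group: V2562, V2563, V2564 and V2565 held 42.3 to 59.3 M counts, with member sums of 888 to 1096 TPM. Of its other libraries, V2561 and V2574 (25.5 and 24.5 M) had 951 and 991 TPM and the rest 1343 to 2168 TPM. The part of these features in the members' values was not tested, and the calls that change without V2571 are given with and without it.

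All 32 members were detected in every library and passed the filter on low counts, so each was tested among 13765 genes with edgeR's quasi-likelihood test. A gene was called where the p adjusted by the Benjamini-Hochberg method over all genes was under 0.05. Differences are log2 fold changes of scaled counts, with the standard error (SE). Levels are TPM, which account for transcript length and can be set side by side between genes.

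In non_failing hearts the highest member was Egfl7, which encodes a secreted protein of the vessel wall, at 237 ± 66.4 TPM (SD, n = 8). The water channel gene Aqp1 followed at 181 ± 41.8 TPM, then Klf2 at 120.1 ± 34.1 TPM and Rgcc, a regulator of the cell cycle, at 105 ± 36.6 TPM. Between these neighbours the ranges over libraries overlapped. A further 19 members lay between 10 and 100 TPM, 8 between 1 and 10 TPM, and 1 below 1 TPM. That gene was Erg, an ETS transcription factor of endothelial identity, whose counts ranged from 2 to 235 per library. Its level was 0.587 ± 0.442 TPM in non_failing hearts, and its 95% intervals were the widest of all members.

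**Figure D1:**
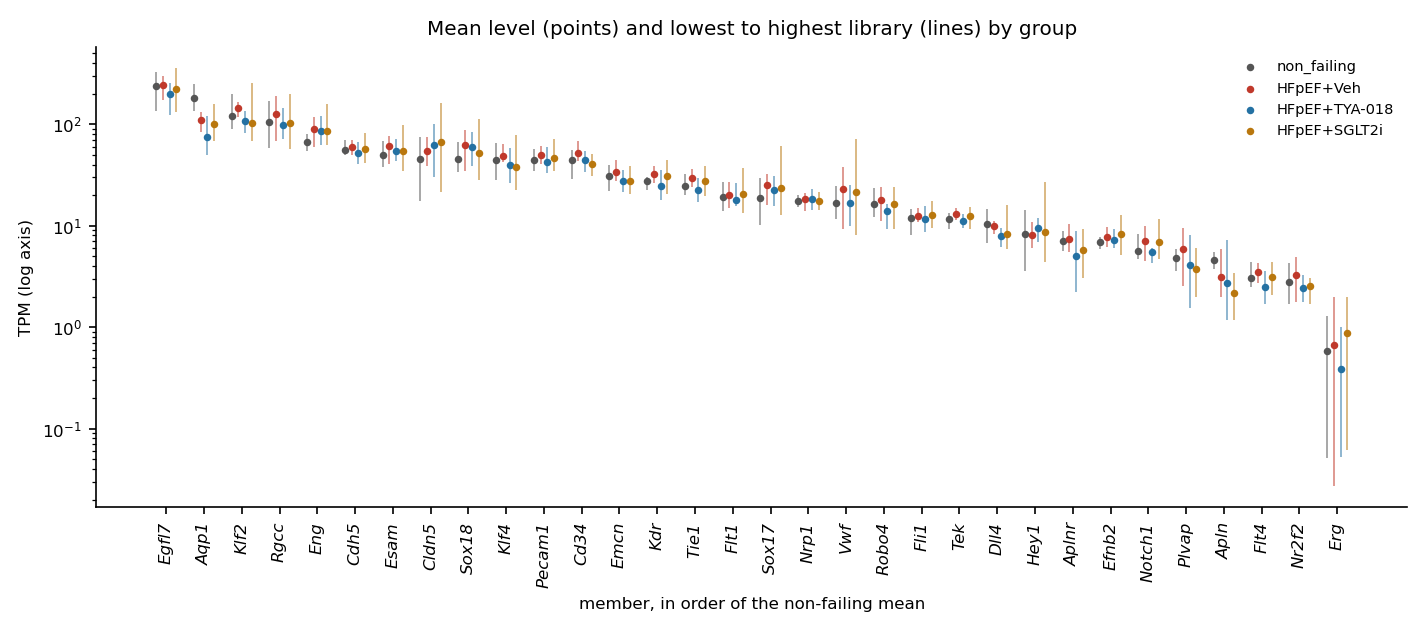
Level of the 32 members in TPM on a log axis, ordered by the non_failing mean; points are group means and lines run from the lowest to the highest library of each group (n = 8, 8, 11 and 11). Egfl7 was highest and Erg lowest in each group, and Aqp1 and Apln were the members whose HFpEF means lay furthest below the non_failing mean.

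Aqp1 and Apln were the only members called in the main analysis of the 6 comparisons. Their promoters are shown because they are the members on which the results turn. Aqp1 lies at chr6:55336432-55348555 on the plus strand and Apln at chrX:48025146-48034853 on the minus strand, both protein-coding (GRCm38, GENCODE M21). The sequences are from RefSeq (GRCm38.p6), run 5′ to 3′ on the gene's strand from 250 bases before to 50 bases after the RefSeq start, and cover chr6:55336049-55336348 and chrX:48034804-48035103. Capitals mark matches, on either strand, to AGGAAG (an ETS core), AACAAT (a SOX core) or CCACCC (a KLF core).
Aqp1: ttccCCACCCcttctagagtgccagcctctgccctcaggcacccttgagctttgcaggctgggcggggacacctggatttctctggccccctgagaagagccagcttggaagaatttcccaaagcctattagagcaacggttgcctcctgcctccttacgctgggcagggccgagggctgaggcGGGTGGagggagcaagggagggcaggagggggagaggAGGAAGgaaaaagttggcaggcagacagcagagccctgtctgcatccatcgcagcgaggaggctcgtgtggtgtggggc
Apln: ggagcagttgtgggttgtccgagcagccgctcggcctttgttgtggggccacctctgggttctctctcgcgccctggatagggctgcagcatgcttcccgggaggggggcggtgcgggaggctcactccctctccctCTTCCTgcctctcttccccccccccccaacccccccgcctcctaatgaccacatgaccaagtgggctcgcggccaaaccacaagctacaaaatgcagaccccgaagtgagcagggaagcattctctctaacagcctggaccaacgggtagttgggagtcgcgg

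The Aqp1 window held 1 ETS match, 29 bases before the start, and 2 KLF matches, 246 and 66 bases before it. The Apln window held 1 ETS match, 113 bases before the start. The table held 26 such windows for 22 of the members. The ETS letters occurred in 14 of these 26 windows (53.8%) and in 35.4% of all 32851 windows of this length. The KLF letters occurred in 12 of 26 (46.2%) and 31.5% of all, and the SOX letters in 3 of 26 (11.5%) and 10.7% of all. These shares describe letters in the windows and no binding was measured.

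In HFpEF+Veh compared with non_failing hearts, which addresses what the model itself does, Aqp1 fell and the other 31 members were not called. The water channel aquaporin-1, which Aqp1 encodes, is carried by capillary endothelium and also by red cells. In non_failing hearts Aqp1 ran from 135 through a median of 177 to 246 TPM. In HFpEF+Veh hearts it ran from 83.9 through 117 to 131 TPM. Every vehicle-treated HFpEF library lay below every non_failing library. The log2 fold change was -0.83 (SE 0.16, 95% interval -1.16 to -0.50, adjusted p = 0.00203), and it was -0.70 to -0.88 over all alternatives and left-out libraries. The 1 called member of 32 is 3.125%, beside 3.15% of all 13765 genes called in this comparison (1.77% higher and 1.38% lower), so the count does not set the members apart. Of the 32 members 23 were higher, with a median of 0.085 beside 0.011 over all genes, and unadjusted p was under 0.05 for 3 members (9.375%) beside 15.9% of all genes.

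Aqp1 was also below the non_failing level in both treated groups. HFpEF+TYA-018 libraries ran from 50.01 through a median of 76.1 to 121 TPM, again without overlap with non_failing libraries, and the log2 fold change was -1.22 (SE 0.15, adjusted p = 5.58e-07). HFpEF+SGLT2i libraries ran from 68.5 through 101 to 158 TPM, with 1 library, V2573, reaching into the non_failing range. Here the log2 fold change was -0.87 (SE 0.15, adjusted p = 0.000187). These comparisons share the 8 non_failing libraries. Against HFpEF+Veh, Aqp1 differed by -0.39 under TYA-018 (SE 0.15, 95% interval -0.70 to -0.09, adjusted p = 0.15, lower in 10 of 11 libraries) and by -0.04 under empagliflozin (SE 0.15, 95% interval -0.34 to 0.26, adjusted p = 0.952), and was called in neither. The first of these was called when libraries were scaled by total count alone (-0.53, adjusted p = 0.0269).

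Markers of red cells had values in the other direction. All 5 of 5 erythrocyte genes (Alas2, Hba-a1, Hba-a2, Hbb-bs and Hbb-bt) had higher values in HFpEF+Veh than in non_failing hearts, with a median log2 fold change of 1.26 and none called; Hbb-bs was called higher in HFpEF+TYA-018 against non_failing hearts (1.15, adjusted p = 0.0385). Their summed level was 3786 to 8147 TPM in non_failing, 5780 to 41874 TPM in HFpEF+Veh, 4811 to 22934 TPM in HFpEF+TYA-018 and 4720 to 16037 TPM in HFpEF+SGLT2i libraries, with no marker at 0. The median sums were 5841 TPM in non_failing and 9124 TPM in HFpEF+Veh libraries, and V2529 was the vehicle library at 41874 TPM. In the pericyte and smooth muscle list, Rgs5 (-0.36, adjusted p = 0.0313) and Abcc9 (-0.46, adjusted p = 0.0251) fell in HFpEF+Veh against non_failing hearts. Of that list of 10, 6 genes were higher and 4 lower, with a median of 0.049, and its summed level was 221 to 323 TPM in non_failing and 221 to 339 TPM in HFpEF+Veh libraries. Of 10 cardiomyocyte markers 9 were lower (median -0.23) and Tnnt2, Myl2 and Tnni3 were called lower, with summed levels of 22598 to 32633 TPM in non_failing and 22309 to 26508 TPM in HFpEF+Veh libraries. Of 10 fibroblast markers 9 were higher (median 0.31) and Lum, Postn and Pdgfra were called higher, with summed levels of 402 to 649 and 459 to 1109 TPM. Against non_failing hearts, 10 of 10 hepatocyte markers were called lower in HFpEF+TYA-018 (median -5.56) and 9 of 10 in HFpEF+SGLT2i hearts (median -4.99), as was Fcna of the liver sinusoidal endothelium list (-1.04 in each, adjusted p = 0.0169 and 0.0181). These are the comparisons in which Aqp1 and Apln were both called. In HFpEF+Veh, where Aqp1 was also called, none of the hepatocyte markers was called. Their summed level had a median of 5.56 TPM there and 57.6 TPM in non_failing libraries, with V2523 alone above 33.5 TPM in the vehicle group. In HFpEF+SGLT2i against non_failing hearts, 4 of 10 cardiomyocyte markers were called lower and none higher (median -0.13). Of 10 fibroblast markers there, 1 was called higher and 1 lower. In HFpEF+TYA-018 no cardiomyocyte marker was called, 1 of 6 lymphatic markers was called lower and 1 of 10 fibroblast markers higher. In the pericyte and smooth muscle list, 1 gene was called in each direction in HFpEF+TYA-018. The part of these cell types in the Aqp1 and Apln results was not tested.

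Apln, the ligand of the apelin receptor, was the second member called, in both treated groups against non_failing hearts. In non_failing libraries Apln ran from 3.78 through a median of 4.58 to 5.49 TPM. It ran from 1.98 through 2.68 to 5.87 TPM in HFpEF+Veh, from 1.18 through 2.51 to 7.15 TPM in HFpEF+TYA-018 and from 1.18 through 2.21 to 3.39 TPM in HFpEF+SGLT2i libraries. All HFpEF+SGLT2i libraries lay below all non_failing libraries, whereas V2521 in HFpEF+Veh and V2543 in HFpEF+TYA-018 lay above every non_failing library. The log2 fold change against non_failing hearts was -1.08 in HFpEF+SGLT2i (SE 0.23, adjusted p = 0.00202) and -0.76 in HFpEF+TYA-018 (SE 0.23, adjusted p = 0.0321). In HFpEF+Veh it was -0.65 (SE 0.25, 95% interval -1.15 to -0.15), which was not called (adjusted p = 0.156), with 7 of 8 libraries below the non_failing mean. The call in HFpEF+TYA-018 was lost (adjusted p up to 0.0698) when any 1 of V2503, V2507, V2509, V2547, V2549, V2550 or V2555 was left out, and the call in HFpEF+SGLT2i held without each of the 38 libraries.

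The receptor Aplnr, a G protein-coupled receptor of endothelium, had 7.10 ± 1.08 TPM in non_failing, 7.40 ± 1.54 TPM in HFpEF+Veh, 5.005 ± 2.25 TPM in HFpEF+TYA-018 and 5.81 ± 2.07 TPM in HFpEF+SGLT2i hearts. Its difference between HFpEF+TYA-018 and HFpEF+Veh was -0.43 (SE 0.21, adjusted p = 0.286), and it was called in no comparison. The library with the highest Apln, V2543, had the lowest Aplnr of its group, 2.20 TPM.

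**Figure D2:**
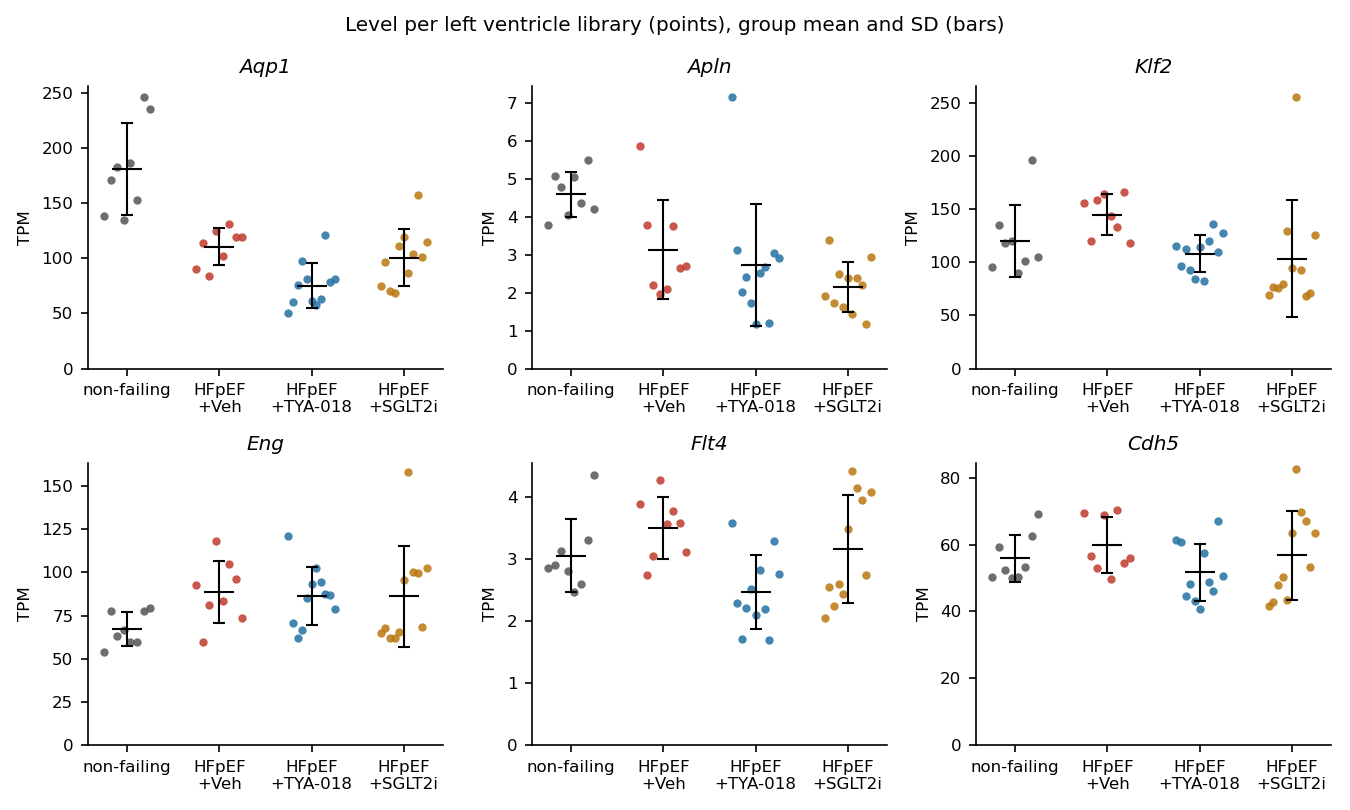
TPM of 6 members in each left ventricle library (points) with group mean and SD (bars); axes start at 0 and differ between panels. Every HFpEF+Veh and HFpEF+TYA-018 library lay below all non_failing libraries for Aqp1, every HFpEF+SGLT2i library did so for Apln, and the single high HFpEF+SGLT2i point for Klf2 and Eng is V2571.

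The counts against non_failing hearts in the treated groups, with all libraries, were likewise near the background. In HFpEF+TYA-018, 2 of 32 members (6.25%) were called, beside 7.39% of all genes (4.0% higher and 3.39% lower). In HFpEF+SGLT2i, 2 of 32 were called, beside 6.45% of all genes (3.46% higher and 2.99% lower). Without V2571, 4 of 32 members were called in each, beside 7.89% of all genes in HFpEF+TYA-018 (Aqp1, Apln, Eng and Dll4) and 5.80% in HFpEF+SGLT2i (Aqp1, Apln, Dll4 and Klf2). V2571 is in neither group of the first comparison and enters it through the fit that the 4 groups share. With all libraries no member was called higher in any comparison.

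No junction or surface gene was called. Cdh5, the adhesion molecule of endothelial adherens junctions, had 55.9 ± 7.06 TPM in non_failing, 59.8 ± 8.33 TPM in HFpEF+Veh, 51.7 ± 8.62 TPM in HFpEF+TYA-018 and 56.8 ± 13.3 TPM in HFpEF+SGLT2i hearts. Its log2 fold change in HFpEF+Veh against non_failing hearts was -0.0031 (95% interval -0.22 to 0.22). Pecam1, which joins neighbouring endothelial cells and also marks platelets and leukocytes, had 44.1 ± 6.86 and 49.3 ± 7.22 TPM in these groups, and a difference of 0.06 (95% interval -0.17 to 0.29). The intervals of both genes exclude a change of 0.5 on the log2 scale in that comparison and in each treated group against vehicle. Esam, Emcn, Cd34 and Robo4, an adhesion molecule, a sialomucin, a sialomucin shared with progenitor cells and a guidance receptor, had means of 49.8, 31.1, 43.9 and 16.3 TPM in non_failing hearts. None was called. Cldn5, the tight junction claudin of endothelium, was more variable, from 17.3 to 74.8 TPM in non_failing and from 21.6 to 163 TPM in HFpEF+SGLT2i libraries. The value of 163 TPM was V2571, and the other 10 libraries of that group reached at most 94.9 TPM.

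Eng, a co-receptor for transforming growth factor β and BMP9, had the smallest p among the members with higher values. It ran from 53.8 through a median of 65.0 to 79.1 TPM in non_failing, from 59.9 through 87.9 to 118 TPM in HFpEF+Veh, from 62.2 through 87.0 to 121 TPM in HFpEF+TYA-018 and from 62.0 through 68.5 to 158 TPM in HFpEF+SGLT2i libraries. The groups overlapped. The differences from non_failing hearts were 0.30 (SE 0.15, adjusted p = 0.306), 0.36 (SE 0.14, adjusted p = 0.0988) and 0.34 (SE 0.14, adjusted p = 0.139), and none was called. Without V2571 the difference in HFpEF+TYA-018 was called (0.36, SE 0.11, adjusted p = 0.0394). V2571 is in neither of those 2 groups, and the groups share 1 estimate of the spread. The difference stayed at 0.36, and the SE went from 0.14 to 0.11. The difference was also called when only those 2 groups were fitted (0.35, adjusted p = 0.0353). The HFpEF+SGLT2i mean of Eng was 86.1 TPM with V2571 and 78.9 TPM without it, beside 67.2 TPM in non_failing hearts.

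Among VEGF receptors, Kdr, the main signalling receptor of VEGF-A, had 27.4 ± 3.11 TPM in non_failing, 32.2 ± 4.67 TPM in HFpEF+Veh, 24.6 ± 5.77 TPM in HFpEF+TYA-018 and 30.6 ± 7.16 TPM in HFpEF+SGLT2i hearts. Flt1, which binds VEGF-A and dampens its signal, stayed between group means of 17.8 and 20.6 TPM. The co-receptor Nrp1 varied least of all members over the 38 libraries, with a coefficient of variation of 13.7% and group means of 17.4 to 18.4 TPM. Flt4, the receptor of VEGF-C and a gene of lymphatic as well as blood endothelium, ran from 2.74 through a median of 3.57 to 4.27 TPM in HFpEF+Veh and from 1.69 through 2.29 to 3.57 TPM in HFpEF+TYA-018 libraries.

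Flt4 had the smallest p of the members in HFpEF+TYA-018 against HFpEF+Veh hearts, the comparison that asks what TYA-018 changes in the model. Its log2 fold change was -0.38 (SE 0.13, 95% interval -0.64 to -0.12, adjusted p = 0.107), with 10 of 11 libraries below the vehicle mean. Tie1, the orphan partner of the angiopoietin receptor, differed by -0.26 (SE 0.11, adjusted p = 0.215) and Kdr by -0.26 (SE 0.12, adjusted p = 0.226). No member was called, beside 1.93% of all genes (0.835% higher and 1.1% lower). DESeq2 also called none. Unadjusted p was under 0.05 for 6 members (Flt4, Aqp1, Tie1, Kdr, Nr2f2 and Aplnr), all lower, which is 18.75% of the members beside 17.5% of all genes. In all, 27 of 32 members had lower values under TYA-018, with a median log2 fold change of -0.13, beside -0.0088 over all genes, of which 48.2% were higher.

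How libraries were scaled mattered for these small differences. Scaling by total count alone moved the median of all genes in this comparison from -0.0088 to -0.14 and that of the members from -0.13 to -0.26. Under it Aqp1, Flt4, Tie1 and Kdr were called lower (adjusted p = 0.0269, 0.0271, 0.0418 and 0.0486), 4 of 32 members beside 7.96% of all genes under that scaling. Relative to all genes the members' median was -0.12 in the main analysis and -0.13 under that scaling. Over 5 ways of scaling, 25 members were lower in each, 3 were higher in each and 4 changed direction. Without V2523, 29 of 32 members were lower, the median was -0.18 and none was called.

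The lymphatic markers also had lower values under TYA-018: 5 of 6 against vehicle, with a median of -0.32 and none called. Their summed level was 25.2 to 68.0 TPM in HFpEF+Veh and 19.9 to 46.4 TPM in HFpEF+TYA-018 libraries, with no marker at 0 in a whole group. The share of lymphatic cells in the Flt4 difference was not tested. The cardiomyocyte list had a median of 0.21 in the same comparison, with 8 of 10 genes higher, none called and summed levels of 22309 to 26508 TPM in HFpEF+Veh and 22243 to 28174 TPM in HFpEF+TYA-018 libraries. The fibroblast list had a median of -0.26, with 10 of 10 genes lower and none called, and summed levels of 459 to 1109 and 423 to 794 TPM. All 10 hepatocyte markers were called lower (median -6.25), from summed levels with a median of 5.56 TPM and 1391 TPM in V2523 to a median of 2.58 TPM. The other vehicle libraries held at most 33.5 TPM, so V2523 carried most of this fold. The part of these cell types in the members' values was not tested.

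**Figure D3:**
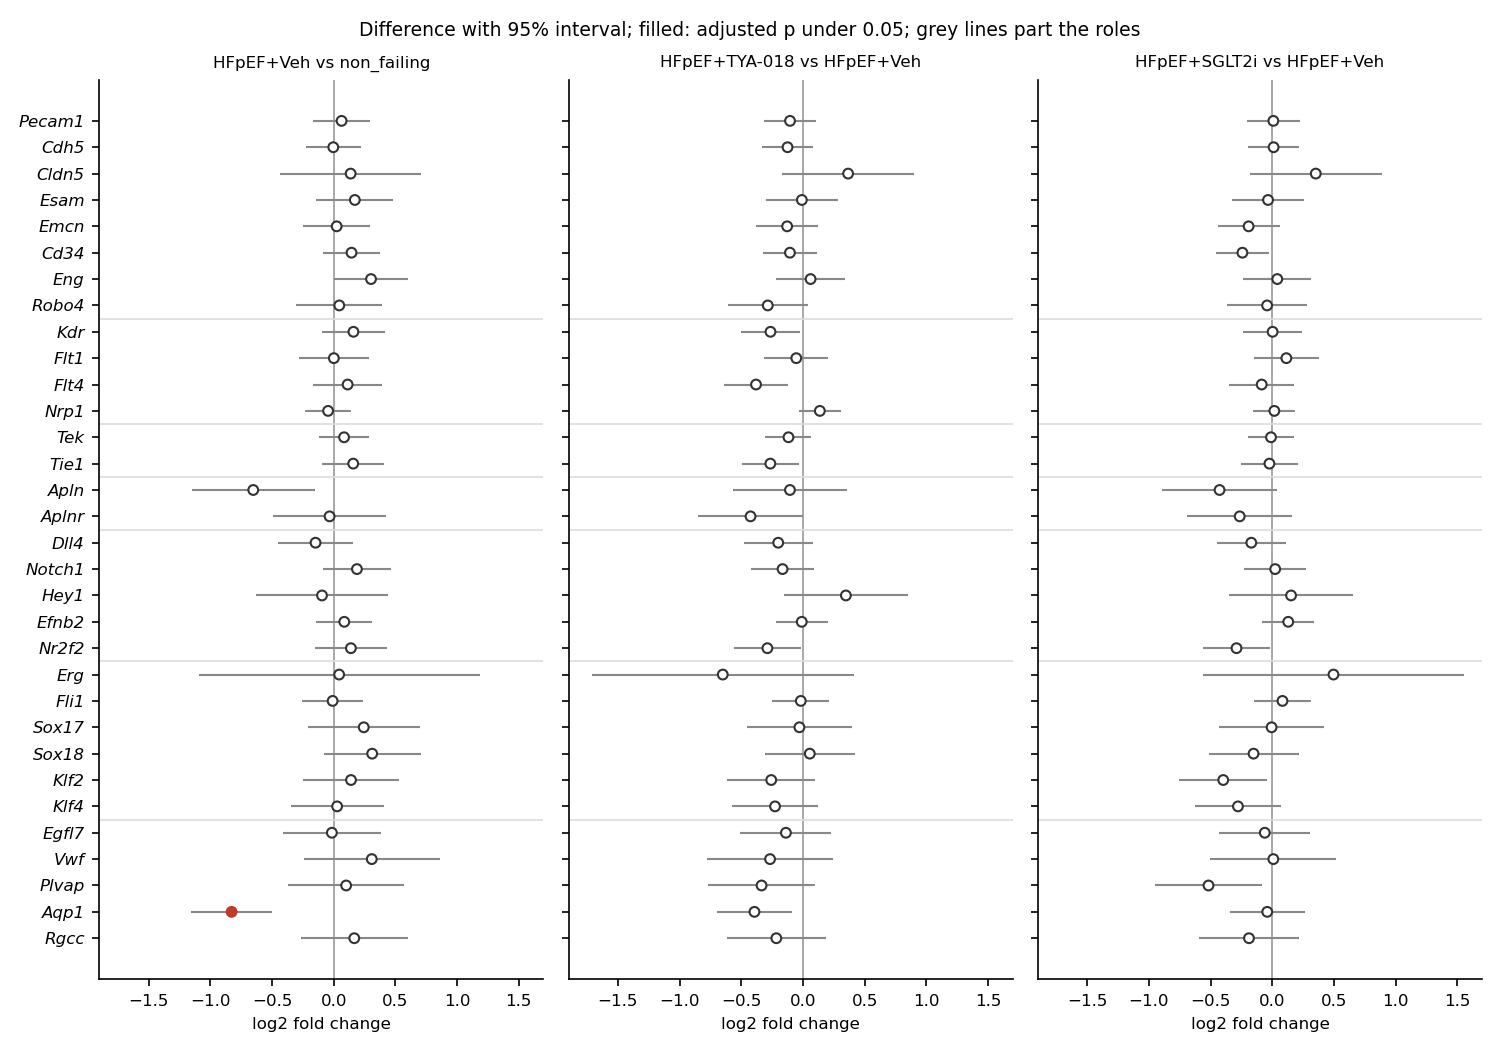
Log2 fold change of each member (circles) with its 95% interval (lines) in HFpEF+Veh against non_failing and in each treated group against HFpEF+Veh; filled circles have an adjusted p under 0.05. The single filled circle is Aqp1 at -0.83, and under TYA-018 27 of 32 circles lie left of 0.

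In HFpEF+SGLT2i against HFpEF+Veh hearts, which asks the same of empagliflozin, no member was called, beside 0.85% of all genes (0.131% higher and 0.719% lower), and DESeq2 also called none. Almost all of these calls over all genes were lost without V2523, as given with the dependence on processing. Unadjusted p was under 0.05 for 4 members, which is 12.5% of them, beside 1383 of all 13765 genes. Plvap, the diaphragm protein of fenestrated and venous endothelium, differed by -0.52 (SE 0.22, adjusted p = 0.36), Cd34 by -0.24 (SE 0.11, adjusted p = 0.415), Klf2 by -0.40 (SE 0.18, adjusted p = 0.421) and Nr2f2, the regulator of venous identity, by -0.29 (SE 0.13, adjusted p = 0.445). Plvap ran from 2.54 through a median of 5.76 to 9.46 TPM in HFpEF+Veh and from 1.97 through 3.77 to 5.97 TPM in HFpEF+SGLT2i libraries, so the groups overlapped. Of the 32 members, 19 were lower, and the median was -0.03, beside 0.0060 over all genes.

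Leaving out V2571 changed the calls under empagliflozin. Klf2, a flow-responsive transcription factor that maintains a quiescent endothelium, ran from 68.4 through a median of 79.8 to 256 TPM in HFpEF+SGLT2i and from 118 through 150 to 166 TPM in HFpEF+Veh libraries. The highest HFpEF+SGLT2i value was V2571, and the other 10 libraries lay between 68.4 and 129 TPM. Without V2571 the Klf2 difference from vehicle was -0.62 (SE 0.13) and was called (adjusted p = 0.0069). Then 27 of 32 members were lower, with a median of -0.15, and 168 of all genes were called, against 117 with it. With all libraries, 9 of 10 fibroblast markers (median -0.22) and 5 of 5 erythrocyte markers (-0.88) were lower than in vehicle. So were 5 of 6 lymphatic markers (-0.29), with none of these called. Erythrocyte markers had median sums of 9124 TPM in HFpEF+Veh and 6646 TPM in HFpEF+SGLT2i libraries, with 41874 TPM in vehicle library V2529. The 10 hepatocyte markers were called lower (-5.83), with median sums of 5.56 and 3.48 TPM in these groups. V2523 held 1391 TPM and the other vehicle libraries at most 33.5 TPM, so V2523 carried most of this fold. The part of these cell types in the members' values was not tested. Aqp1, Apln and Aplnr were not raised in V2571, at 87.0, 1.43 and 3.94 TPM, against 102, 2.23 and 5.99 TPM on average in the other 10 libraries. Without V2523 in place of V2571, 26 members were lower, the median was -0.07 and none was called.

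Klf4, the relative of Klf2, had 44.5 ± 11.5, 48.7 ± 6.62, 39.8 ± 9.33 and 37.8 ± 15.5 TPM in the groups in the order non_failing, vehicle, TYA-018 and empagliflozin and was not called. Without V2571 the last was 33.8 ± 8.23 TPM. Immediate early genes are a class that cells induce quickly on stimulation. All 8 immediate early genes had lower values than vehicle under TYA-018 (median -0.36) and under empagliflozin (median -0.46), with none called. Their summed level was 480 to 853 TPM in non_failing, 656 to 1054 TPM in HFpEF+Veh, 414 to 818 TPM in HFpEF+TYA-018 and 397 to 1069 TPM in HFpEF+SGLT2i libraries, with none at 0. Their part in the Klf2 values was not tested.

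**Figure D4:**
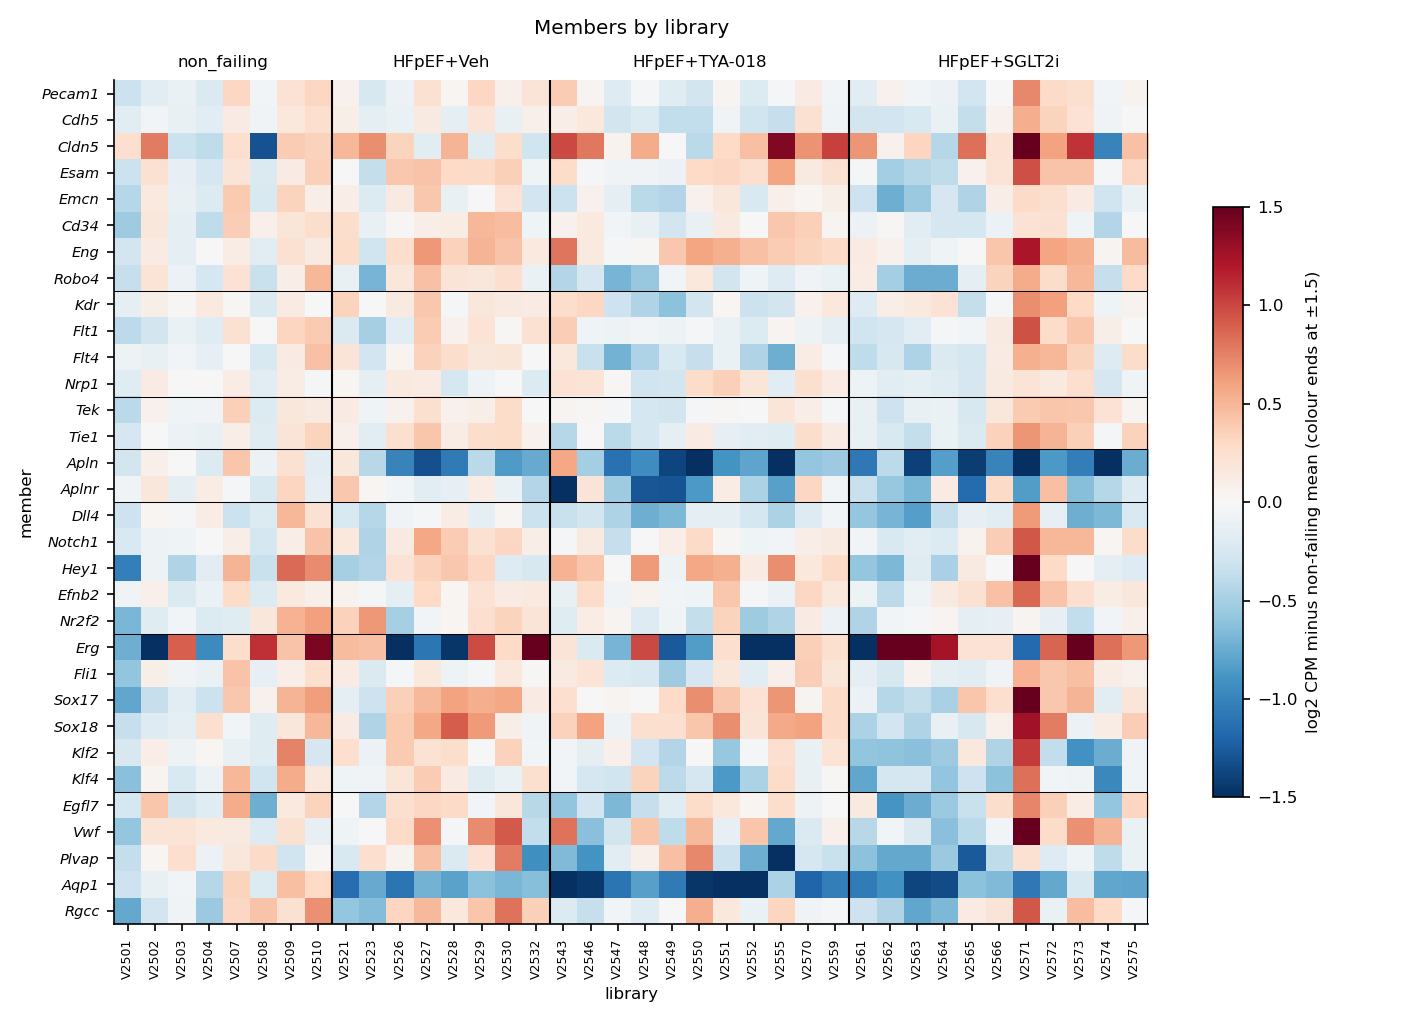
Log2 CPM (counts scaled to 1000000 per library) of each member in each of the 38 libraries minus the non_failing mean, red higher and blue lower, with colour ending at 1.5 in either direction. The Aqp1 row is blue through all 30 HFpEF libraries, the column of V2571 is red for most members, and the Erg row changes colour from library to library.

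No Notch or arteriovenous gene was called. Dll4, the Notch ligand of arterial and tip cells, had 10.4 ± 2.46 TPM in non_failing, 9.87 ± 1.06 TPM in HFpEF+Veh, 7.98 ± 1.18 TPM in HFpEF+TYA-018 and 8.35 ± 2.93 TPM in HFpEF+SGLT2i hearts. Its difference from non_failing hearts was -0.35 under TYA-018 (SE 0.14, adjusted p = 0.12, lower in 11 of 11 libraries) and -0.32 under empagliflozin (SE 0.14, adjusted p = 0.185). Without V2571 both were called (-0.35, SE 0.11, adjusted p = 0.0445, and -0.45, SE 0.11, adjusted p = 0.0114). V2571 is in neither group of the first, whose difference stayed at -0.35 while the SE went from 0.14 to 0.11. The receptor Notch1 had group means of 5.50 to 7.08 TPM, its target Hey1 8.16 to 9.51 TPM (6.84 TPM in HFpEF+SGLT2i without V2571), the arterial ephrin Efnb2 6.89 to 8.23 TPM and Nr2f2 2.45 to 3.25 TPM.

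The remaining transcription factors were not called either. Fli1, an ETS factor also used by blood cells, had group means of 11.7 to 12.9 TPM and a difference of -0.0085 in HFpEF+Veh against non_failing hearts (95% interval -0.26 to 0.24). Sox17 and Sox18, SOX factors of arterial and lymphatic development, had 18.8 ± 6.24 and 45.2 ± 10.9 TPM in non_failing and 25.1 ± 6.26 and 62.7 ± 19.6 TPM in HFpEF+Veh hearts, and the groups overlapped. For Erg the interval in the same comparison ran from -1.09 to 1.18, wide enough to hold a change of 1 on the log2 scale in either direction.

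Of the last group, Egfl7 had group means of 196 to 242 TPM, Rgcc 98.1 to 127 TPM and Vwf, the clotting factor stored in endothelium and platelets, 16.7 to 22.8 TPM. Vwf was the most uneven of these in HFpEF+SGLT2i hearts, where V2571 had 71.6 TPM and the other 10 libraries 8.01 to 30.1 TPM, with a mean of 16.4 TPM. Platelet markers summed to 25.6 to 151 TPM in that group, with the highest value also in V2571. The angiopoietin receptor Tek had group means of 11.0 to 12.98 TPM.

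TYA-018 and empagliflozin are unrelated in target and were compared directly. No member was called, beside 0.0% of all genes; unadjusted p was under 0.05 for 5 members and 1821 genes, and DESeq2 called 184 genes and no member. The smallest p values were those of Aqp1 (-0.35, SE 0.14, 95% interval -0.63 to -0.07, adjusted p = 0.259), Kdr (-0.27, SE 0.11, 95% interval -0.48 to -0.05, adjusted p = 0.279) and Flt4 (-0.29, SE 0.12, 95% interval -0.54 to -0.05, adjusted p = 0.28), all lower under TYA-018. The study's methods give a different dose for each drug. For 21 of 32 members the interval lay within 0.5 on the log2 scale. With all libraries, 13 members were higher and 19 lower under TYA-018, with a median of -0.054. Without V2571, 18 were higher and 14 lower, with a median of 0.035, and none was called. Kdr then had an adjusted p of 0.434.

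Whether members with a shared function rise and fall together from mouse to mouse was examined in 5 pairs, as the correlation of deviations from the group mean over 38 libraries (two-sided permutation test within groups, adjusted over the 5 pairs). Pecam1 and Cdh5 moved together most closely, with Pearson's r = 0.85 (adjusted permutation p = 5e-05, from the smallest p that 100000 resamples can give) and Spearman's rho = 0.81 (adjusted permutation p = 5e-05). The values within the 4 groups were r = 0.94 in non_failing, 0.84 in vehicle, 0.78 in TYA-018 and 0.91 in empagliflozin libraries. Dll4 and its downstream target Hey1 had r = 0.67 (raw permutation p = 0.00033, adjusted p = 0.000825) and rho = 0.50 (adjusted p = 0.00535). Within groups r was 0.63, 0.71, 0.08 and 0.84 in the same order, so the relation was not seen in HFpEF+TYA-018 libraries, and the difference between groups was not tested. Klf2 and Klf4 had r = 0.63 (raw permutation p = 0.00052, adjusted p = 0.000867) and rho = 0.42 (adjusted p = 0.0155), with r of 0.59, 0.18, 0.55 and 0.73 within groups. Kdr and Flt1 had r = 0.47 (raw permutation p = 0.00256, adjusted p = 0.0032) and rho = 0.29 (adjusted p = 0.0714), with r of 0.18, 0.42, 0.33 and 0.73 within groups.

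Apln and Aplnr had r = 0.18 (permutation p = 0.387, adjusted p = 0.387), whereas rho was 0.51 (raw permutation p = 0.00346, adjusted p = 0.00577). Without the 2 libraries farthest from the median of Apln, V2543 and V2555, r was 0.52 (adjusted permutation p = 0.00582). Without the 2 farthest libraries of their first gene, r was 0.81 for Pecam1 and Cdh5, 0.51 for Dll4 and Hey1, 0.37 for Klf2 and Klf4 and 0.31 for Kdr and Flt1, and V2571 was among those left out in each of these pairs. These correlations share the depth and cell composition of each library, and no pair without a shared function was examined. They therefore cannot tell a shared function from a level that the members share in a library.

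**Figure D5:**
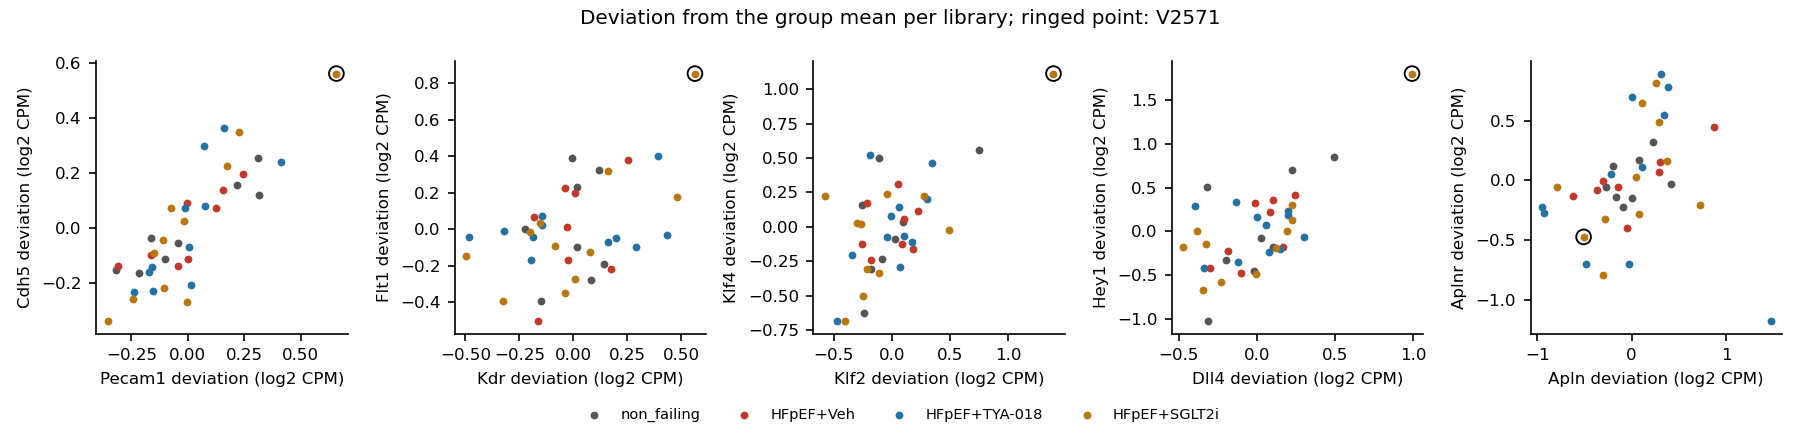
Deviation of each library from its group mean in log2 CPM for 5 pairs of members (38 points, coloured by group); the ringed point is V2571. V2571 is at the upper right end in 4 panels, and the point at the lower right of the Apln and Aplnr panel is V2543.

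Other genes of the same pathways were examined in fixed lists. Under TYA-018 against vehicle the median over all genes tested was -0.0088 and 1.93% of them were called. Of the ligands, 13 of 16 were tested. Vegfb, a VEGF ligand made by cardiomyocytes, rose under TYA-018 against vehicle, from 189 ± 26.1 to 215 ± 20.2 TPM (log2 fold change 0.36, SE 0.10, adjusted p = 0.0463), and the list's median was -0.16. That fold change is of scaled counts, and the rise between the TPM means was smaller. Bmp10, a ligand of the Eng pathway that the atria express, had at most 0.104 CPM in a non_failing library and up to 0.619, 0.544 and 1.11 CPM in the vehicle, TYA-018 and empagliflozin groups; it passed the filter on low counts through the groups where it is high, so its calls against non_failing hearts are not read as support. Of the 18 receptors and effectors, 17 were lower under TYA-018 than in vehicle, with a median of -0.18, and 1 was called: Plxnd1, a semaphorin receptor of endothelium, fell from 16.7 ± 1.78 to 11.0 ± 2.15 TPM (log2 fold change -0.42, SE 0.11, adjusted p = 0.0286). Against non_failing hearts, Plxnd1 (-0.44, adjusted p = 0.00701) and Nrp2, a co-receptor of VEGF-C (-0.53, adjusted p = 0.00302), fell in HFpEF+TYA-018. These were 2 of the 18, beside 7.39% of all genes called in that comparison.

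Of the 23 further transcription factors and targets, none was called in HFpEF+Veh against non_failing hearts (median 0.030, beside 0.011 over all genes) or in either treated group against vehicle (medians -0.14 under TYA-018 and -0.029 under empagliflozin). Against non_failing hearts, 1 of the 23 was called higher in HFpEF+TYA-018, and 1 higher and 2 lower in HFpEF+SGLT2i. Beside these, 7.39% and 6.45% of all genes were called. Smad6, an inhibitor of BMP signalling, rose in HFpEF+TYA-018 (0.86, SE 0.21, adjusted p = 0.00838) and HFpEF+SGLT2i hearts (0.70, SE 0.21, adjusted p = 0.0365). In HFpEF+SGLT2i hearts Sox7, a relative of Sox17, fell by 0.54 (SE 0.14, adjusted p = 0.0144) and the Notch target Nrarp fell by 0.55 (SE 0.17, adjusted p = 0.0377). Of the 20 other endothelial genes, 18 were tested. Against non_failing hearts, 2 of the 18 were called higher and 1 lower in HFpEF+TYA-018, and 2 higher in HFpEF+SGLT2i, beside the same shares of all genes. In HFpEF+Veh against non_failing hearts, 17 of 18 were higher, with a median of 0.26 beside 0.011 over all genes, and none was called. Against non_failing hearts, the fatty acid binding protein gene Fabp4 rose in HFpEF+TYA-018 (0.57, SE 0.16, adjusted p = 0.0266), from 1554 to 2245 TPM, and Cd36, a fatty acid transporter gene, rose in HFpEF+SGLT2i hearts (0.45, SE 0.10, adjusted p = 0.00441), from 430 to 604 TPM. Car4, a carbonic anhydrase of capillaries, rose in HFpEF+SGLT2i (0.60, SE 0.17, adjusted p = 0.0272), and Clec14a, a surface lectin, rose (0.43, adjusted p = 0.0419) and the phosphatase gene Ptprm fell (-0.27, adjusted p = 0.0342) in HFpEF+TYA-018 hearts. Cardiomyocytes and adipocytes also express Cd36 and Fabp4; of 6 white adipocyte markers none had a group median above 1 TPM.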

How the data were processed

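Left ventricle RNA of 38 mice was sequenced, 1 library per mouse. According to the study's methods, reads were trimmed with fastp, quantified with Salmon 1.6.0 against mouse transcripts and made into an expression matrix with tximport. The labels name a human build, and GENCODE for mouse is given in the methods. The authors deposited expected counts (estimated reads per gene, not normalized), TPM values (length-adjusted and scaled to 1000000 per library) and effective lengths per gene. Each library held 21.5 to 59.3 M counts (M, 1000000).

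The expected counts were rounded, filtered with filterByExpr and scaled by TMM, and 4 groups were fitted in 1 edgeR 4.0.16 quasi-likelihood model (R 4.3.3), with Benjamini-Hochberg adjustment over 13765 genes and a threshold of 0.05, for 6 comparisons. SE and 95% intervals come from that fit. The script was tested on simulated data with changes placed in the TYA-018 group. DESeq2 1.42.0, limma 3.58.1 on log2(TPM + 1) and log2(TPM + 0.1), other scalings, no filter, a length offset, fits of only the groups compared and leaving out each library were the alternatives. Correlations used log2 CPM with a prior count of 2 and 100000 resamples.

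Members and lists were chosen with earlier results of these data known. Values were given for each member called and, where fewer than 3 were called, for those with the smallest p up to 3. From the pathway lists and the other endothelial genes the called genes were named; cell type markers are given only beside the results they touch. Other members were named to account for all 32. Leaving V2571 out of the correlations was chosen after seeing the data. Nothing in the labels says more of the mice than 1 library each, and the labels give no batch or dose. Gene positions are from GENCODE M21 and promoters from RefSeq.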

Additional observations from a re-analysis of the deposited data

Results flagged for a closer look

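Of 64 combinations of a member and a group of 8 libraries, 5 had a library set apart from the others by a gap larger than Dixon's 95% critical value of 0.526; chance sets apart about 1 in 20 groups. In non_failing hearts, V2510 had 4.34 TPM of Flt4, against 2.47 to 3.29 TPM in the other libraries. The same library had 8.22 TPM of Notch1, against 4.66 to 5.97 TPM. V2509 had 196 TPM of Klf2, against 89.7 to 135 TPM. In HFpEF+Veh hearts, V2521 had 5.87 TPM of Apln, against 1.98 to 3.79 TPM, and V2527 had 63.7 TPM of Klf4, against 42.1 to 50.6 TPM.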

How the results depend on the processing

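Aqp1 was called lower than in non_failing hearts in all 3 HFpEF groups under each of 8 other settings and without each of 38 libraries, and so was Apln in HFpEF+SGLT2i. No called difference changed direction, whereas 1 to 8 of the 32 members, called or not, changed direction over 5 scalings, depending on the comparison. The number of all genes called moved more: in HFpEF+TYA-018 against HFpEF+Veh it was 266, and 1096 with library size alone, 618 with no filter, 524 with DESeq2, 58 with only those groups and 42 and 24 with limma; in HFpEF+SGLT2i against HFpEF+Veh it was 117, and 457 with no filter, 229 with DESeq2, 3 with only those groups, 2 without V2523 and 0 with limma. Scaling by library size alone gave 4 members called in HFpEF+TYA-018 against HFpEF+Veh, against 0. Leaving out 1 library gave 0 to 1 called members in HFpEF+SGLT2i against HFpEF+Veh, 1 to 4 in HFpEF+TYA-018 against non_failing and 2 to 4 in HFpEF+SGLT2i against non_failing hearts, where without V2571 1.22%, 7.89% and 5.80% of all genes were called; the upper values were without V2571, which added Klf2 (-0.62, adjusted p = 0.0069), then Eng and Dll4, then Dll4 and Klf2 (-0.48, adjusted p = 0.0218). Fitting only HFpEF+TYA-018 and non_failing libraries called Eng and lost Apln (adjusted p = 0.0524). V2571 is in neither group of HFpEF+TYA-018 against non_failing hearts. There its absence left the differences of Eng and Dll4 as they were and lowered their SE, through the fit that the 4 groups share. The causes of the other changes were not tested. The correlation of Apln and Aplnr was 0.52 without V2543 and V2555. Without V2571, a choice made after seeing the data, r was 0.81 for Pecam1 and Cdh5, 0.48 for Dll4 and Hey1, 0.44 for Klf2 and Klf4, 0.33 for Kdr and Flt1 and 0.16 for Apln and Aplnr. No paired analysis was possible because the groups share no replicate numbers. Erg had as few as 2 counts in a library, and libraries of like total differed (V2526 0.027 TPM, V2529 1.04 TPM). The deepest libraries, V2564, V2532 and V2565 (59.3, 57.7 and 51.8 M), had 1.08, 1.96 and 0.515 TPM. The highest value, 1.99 TPM, was in V2562 (45.1 M). The part of depth in the Erg values was not tested.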
